A study of Mus musculus with 4 samples.

Results

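The genes described here are Gata3 and 7 genes known from regulatory T cells that repair tissue, namely Il1rl1, Areg, Klrg1, Ptger2, Il5, Il13 and Pparg. They were taken by gene symbol from a table of raw counts per gene, where all 8 were found among 24061 gene rows. At least 1 count was present for 7 of them, 6 passed a filter on low counts, and 5 are listed in the authors' own filtered table. Of the 24061 gene rows, 13022 passed the same filter.

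Counts came from RNA sequencing of about 40000 sorted regulatory T cells per sample, taken from Peyer's patches, the lymphoid follicles of the small intestine. The cells were sorted as CD4+FoxP3+CD62L- and are effector cells by that definition. The libraries labelled flox 1 and flox 2 are given as Mafflox/floxFoxP3-YFP-cre, so that Cre made from the Foxp3 locus can remove the transcription factor c-Maf in cells that express Foxp3. The libraries labelled wt 1 and wt 2 are given as Maf+/+FoxP3-YFP-cre. All mice carried the same Cre with a yellow fluorescent reporter, were 13 weeks old, were of strain background C57BL/6 (N5 backcross) and were kept free of specific pathogens, Helicobacter hepaticus among them. Separate animals are not stated for the libraries of a group, so the p-values reflect only the spread among these samples, and that spread may be technical. Gene totals ran from 19368745 to 24687897 counts per library.

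The targeted gene went against the labels of 2 libraries. Maf had 0.725 CPM (counts scaled to a common library size with TMM factors) in the library labelled flox 2 and 1.98 CPM in the library labelled wt 2, against 122 CPM in the library labelled flox 1 and 149 CPM in the library labelled wt 1. The libraries labelled flox 2 and wt 2 are therefore called Maf-low below, and those labelled flox 1 and wt 1 Maf-high. This split follows the number in the sample titles. It was chosen with the Maf levels known, so Maf itself was not tested in it. The comparison of the labels, flox against wt, is given separately and says nothing of the measured Maf level. Markers of regulatory T cells were present in every library, with Foxp3 between 91 and 104 CPM, Il2ra between 401 and 510 CPM and Cd4 between 920 and 998 CPM. Of 9 tested markers 1 passed between Maf-low and Maf-high libraries. It was Ctla4, the gene of an inhibitory receptor, which fell to 2080 and 1627 CPM in the libraries labelled flox 2 and wt 2, against 3344 and 3342 CPM in those labelled flox 1 and wt 1 (log2 fold change -0.85, SE 0.12, adjusted p = 0.027 in edgeR's quasi-likelihood test with Benjamini-Hochberg adjustment).

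GATA3 is a zinc finger transcription factor best known for directing type 2 helper T cells, and it is also used by regulatory T cells at barrier surfaces such as the gut. Those cells often carry ST2, the receptor for the alarm cytokine interleukin 33 encoded by Il1rl1, and can release amphiregulin, a growth factor that acts on epithelium through the epidermal growth factor receptor. KLRG1 is an inhibitory receptor on differentiated lymphocytes that binds cadherins, EP2 (Ptger2) is a prostaglandin E2 receptor that raises cyclic AMP, and PPAR gamma (Pparg) is a lipid-sensing nuclear receptor needed by regulatory T cells of fat tissue. Interleukins 5 and 13 are type 2 cytokines whose genes lie near each other and are direct targets of GATA3 in helper T cells.

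The promoters of 3 of the genes are shown because they stand for the 3 patterns found below: Gata3, which was highest in a single library, Areg, the most abundant per length, and Il13, which was almost silent. Each sequence is the 250 bases before a RefSeq transcription start, read 5′ to 3′ on the gene's strand, in the GRCm38.p6 assembly (the assembly of mm10). Capitals mark the MAF core TGCTGA, the GATA core AGATAA, the cyclic AMP response element TGACGTCA and the TATA box TATAAA, searched on both strands (in Areg the MAF core reads TCAGCA, its reverse complement). The heat shock element GAANNTTC was searched as well and matched in none of the 10 windows available for 7 of the genes. Klrg1 has no entry in the table used.
Gata3 (chr2:9878601-9878850, minus strand): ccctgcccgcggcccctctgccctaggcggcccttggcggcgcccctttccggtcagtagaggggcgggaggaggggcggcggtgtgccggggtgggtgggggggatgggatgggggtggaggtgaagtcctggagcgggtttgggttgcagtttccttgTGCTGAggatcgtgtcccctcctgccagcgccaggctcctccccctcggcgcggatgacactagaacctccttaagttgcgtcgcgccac
Areg (chr5:91139349-91139598, plus strand): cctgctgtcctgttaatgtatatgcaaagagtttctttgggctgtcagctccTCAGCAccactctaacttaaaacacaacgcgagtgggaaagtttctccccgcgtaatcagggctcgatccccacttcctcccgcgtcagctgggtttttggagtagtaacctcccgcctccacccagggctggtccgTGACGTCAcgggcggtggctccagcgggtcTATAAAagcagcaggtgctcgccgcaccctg
Il13 (chr11:53634703-53634952, minus strand): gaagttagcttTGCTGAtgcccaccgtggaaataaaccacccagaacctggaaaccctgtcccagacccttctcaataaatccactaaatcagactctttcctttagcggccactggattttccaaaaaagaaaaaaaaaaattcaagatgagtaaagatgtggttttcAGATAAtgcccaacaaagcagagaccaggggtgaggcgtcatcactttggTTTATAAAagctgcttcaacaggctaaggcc
The MAF core was present in 4 of the 10 windows, the 3 shown and 1 of the 2 windows of Il1rl1, and in 16.1% of 32841 RefSeq promoter windows of this length. It was not in the windows of Ptger2, Il5 or Pparg. Il13 and both windows of Il1rl1 also held the GATA core (9.99% of all windows). Areg, Il13 and 1 window of Pparg held a TATA box (12.4%), which in Il13 matched on both strands with overlapping letters. The cyclic AMP response element of Areg began 61 bases before the start and was present in 1.55% of all windows. The heat shock element was present in 6.7% of them. A match of letters describes the window and does not show that a factor binds there.

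Per kilobase of exon, the scale on which genes can be compared, Areg was the most abundant of the 8 genes, at a mean of 273 CPM per kb over the 4 libraries. Gata3 followed at 128 CPM per kb, Klrg1 at 53.4, Ptger2 at 24.5, Il1rl1 at 14.4 and Pparg at 0.141 CPM per kb. Among 12406 tested genes with a known exon length, Areg stood above 99.2%, Gata3 above 97.7%, and Pparg above 3.42%. Areg and Gata3 did not overlap in their library values (213 to 362 against 98.2 to 183 CPM per kb), whereas Klrg1 (24.8 to 80.5) and Ptger2 (21.4 to 29.6) did. The plot of levels by library shows the same genes on the CPM scale.

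**Figure D1:**
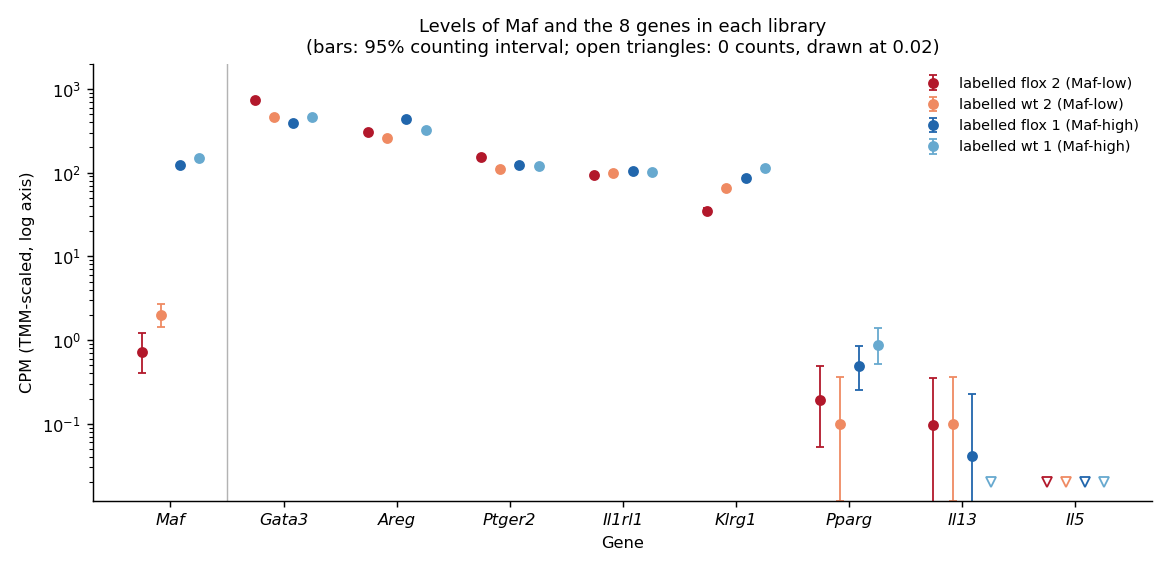
CPM of Maf and of the 8 genes (x axis) in each library, on a log axis, with 95% Poisson intervals of the counts. Maf is at 0.725 and 1.98 CPM in the Maf-low libraries and at 122 and 149 CPM in the Maf-high ones, Gata3 is highest in the library labelled flox 2, Klrg1 is lower in both Maf-low libraries, and Il5 has 0 counts in all 4.

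Across all genes, 1.81% of the 13022 tested passed edgeR's quasi-likelihood test between Maf-low and Maf-high libraries (Benjamini-Hochberg adjusted p under 0.05), 52 of them higher and 184 lower in the Maf-low libraries, and 0 of the 6 tested members did. In that comparison 1 of the 6 members, Klrg1, had an unadjusted p under 0.05, where 13.6% of all tested genes did. Both Maf-low libraries lay on one side of both Maf-high libraries for 5 of the 6 tested members, where 45.2% of all tested genes did. Of these 5, Gata3 was higher in the Maf-low libraries (22.7% of all tested genes) and Il1rl1, Areg, Klrg1 and Pparg were lower (22.5%). Pparg passed the filter on low counts only through the Maf-high libraries, so its place among the 5 is itself tied to a difference. For Gata3, Il1rl1 and Areg the nearest libraries of the 2 groups differed by less than counting error, and for Pparg they did so at very low counts, so that Klrg1 alone had a gap wider than its counting interval. The smallest two-sided p that an exact permutation test can give in this design is 0.333, so no such test was used.

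Gata3 stood apart in 1 library and not by Maf level. It had 728 CPM in the library labelled flox 2 and 463 CPM in the library labelled wt 2, against 391 CPM in the library labelled flox 1 and 457 CPM in the library labelled wt 1. The library labelled wt 2, with little Maf, differed from the library labelled wt 1 by less than counting error, at a ratio of 1.01 (95% interval 0.984 to 1.04). Within flox, the Maf-low library was 1.86 times the Maf-high one (1.82 to 1.91). These ratio intervals are exact binomial ones and, like all counting intervals here, cover counting error only. By the edgeR quasi-likelihood test the log2 fold change of Maf-low over Maf-high was 0.49 (SE 0.24, 95% interval -0.15 to 1.13, adjusted p = 0.492). Leaving out the library labelled wt 2, which sets the library labelled flox 2 alone against both Maf-high ones and assumes that it varies as they do, raised this to 0.78 (adjusted p = 0.0104). Leaving out the library labelled flox 2 instead lowered it to 0.13 (adjusted p = 0.649). The authors' filtered table, whose values are normalized to a common library size, lists Gata3 at 15550 in the library labelled flox 2 and 9934 in the library labelled wt 2, against 8412 in the library labelled flox 1 and 9732 in the library labelled wt 1.

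The library with the high Gata3 level also stood apart in heat shock transcripts. Summed over 16 heat shock genes, the level was 15150 CPM in the library labelled flox 2 and 6524 CPM in the library labelled wt 2, against 7546 CPM in the library labelled flox 1 and 6805 CPM in the library labelled wt 1. In the library labelled flox 2, 11 of the 16 genes were at least 1.5 times the highest of the other 3 libraries, as was Gata3 at 1.57 times, while 254 of the 13022 tested genes (1.95%) were. Hspa8, a constitutive chaperone, had 4359 CPM in the library labelled flox 2 and 1878 CPM in the library labelled wt 2, against 2375 and 2104 CPM in the libraries labelled flox 1 and wt 1. Hsp90ab1, a subunit of the chaperone HSP90, had 2179 and 1306 CPM in the libraries labelled flox 2 and wt 2, against 1292 and 1354 CPM in those labelled flox 1 and wt 1. Hspa5, a chaperone of the endoplasmic reticulum, did not share the pattern, with 1546 and 1318 CPM against 1558 and 1504 CPM in the same order of libraries. None of the 16 genes (0) passed edgeR's test between Maf-low and Maf-high libraries. The part of these transcripts in the Gata3 level was not tested.

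The 3 genes whose pattern over the 4 libraries was closest to that of Gata3 were Ssbp2, Lzts2 and Fdx1, out of 8147 genes with a mean of at least 10 CPM. Likeness was the distance between log2 CPM values centred on each gene's mean. It was 0.0847 for Ssbp2, where Gata3 itself spanned 0.897 log2 units. Ssbp2, which encodes a binding protein for single-stranded DNA, had 97.2 and 63.7 CPM in the libraries labelled flox 2 and wt 2, against 51.9 and 58 CPM in those labelled flox 1 and wt 1. Over 4 libraries such a likeness is a description only.

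**Figure D2:**
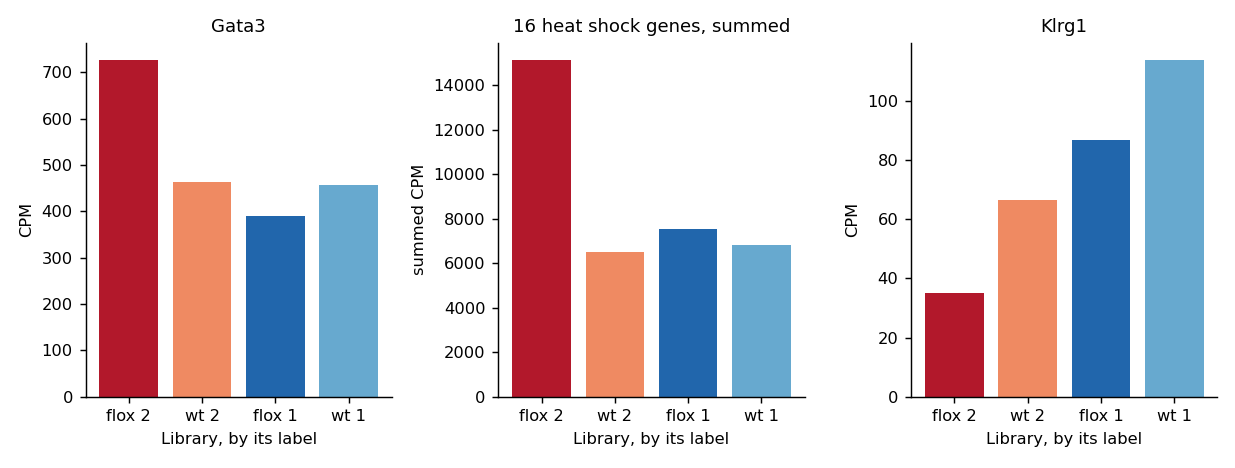
CPM of Gata3, summed CPM of 16 heat shock genes and CPM of Klrg1 (y axes, from 0) in the 4 libraries, Maf-low to the left of Maf-high. Gata3 (728 CPM) and the heat shock sum (15150 CPM) are highest in the library labelled flox 2 alone. Klrg1 is lower in both Maf-low libraries (35.1 and 66.4 CPM) than in both Maf-high ones (86.7 and 114 CPM), and lowest in the library labelled flox 2.

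Klrg1 was the member with the clearest separation by Maf level. It had 35.1 CPM in the library labelled flox 2 and 66.4 CPM in the library labelled wt 2, against 86.7 CPM in the library labelled flox 1 and 114 CPM in the library labelled wt 1. Both Maf-low libraries lay below both Maf-high ones, with the library labelled flox 1 at 1.31 times the library labelled wt 2 (counting interval 1.22 to 1.4). The library labelled flox 2 also stood apart within the Maf-low group, at 0.528 times the library labelled wt 2 (0.482 to 0.578). That step is wider than the gap between the groups. Within a label the Maf-low library was 0.404 times the Maf-high one in flox (0.371 to 0.44) and 0.583 times in wt (0.545 to 0.624). The log2 fold change was -0.98 (SE 0.35, 95% interval -1.93 to -0.03), with an unadjusted p of 0.0453 and an adjusted p = 0.353 in edgeR's quasi-likelihood test. The call depended on the test: Klrg1 passed with DESeq2 (adjusted p = 0.0113) and with the label as a further term in edgeR (adjusted p = 0.0452), but not with limma-voom (adjusted p = 0.302) or without the filter on low counts (adjusted p = 0.719). The log2 fold change also depended on single libraries, at -1.51 without the library labelled wt 2 and -0.59 without the library labelled flox 2. Each of these fits leaves 1 Maf-low library, so the spread of that group is not measured. In bulk samples, fewer cells that carry a transcript and less RNA per cell cannot be told apart.

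The gene closest to Klrg1 in its pattern was Rb1, the retinoblastoma tumour suppressor, at a distance of 0.127 where Klrg1 spanned 1.7 log2 units. Rb1 had 51.9 and 95.1 CPM in the libraries labelled flox 2 and wt 2, against 132 and 154 CPM in those labelled flox 1 and wt 1. Ier5l, an immediate early response gene by name, followed with 37 and 82.1 CPM against 113 and 128 CPM in the same order, and Rnf144a, which encodes a ubiquitin ligase, with 9.96 and 14.7 CPM against 23.4 and 26.7 CPM.

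KLRG1 is also found on natural killer and CD8 T cells, so markers of those cells are given beside it. Summed over 10 markers, they reached 430 CPM in the library labelled flox 2 and 605 CPM in the library labelled wt 2, against 314 CPM in the library labelled flox 1 and 116 CPM in the library labelled wt 1, so both Maf-low libraries were above both Maf-high ones. Gzma, the granzyme A gene, made the largest part of the sum in each library, at 210 and 420 CPM in the libraries labelled flox 2 and wt 2, against 222 and 48.5 CPM in those labelled flox 1 and wt 1. Nkg7, a cytotoxic granule gene, had 118 and 101 CPM against 31 and 12.7 CPM in the same order (log2 fold change 2.32, SE 0.47, unadjusted p = 0.00782, edgeR adjusted p = 0.157). Of the 8 tested markers 1, Klrb1c, passed, and it is described below. Cd8a had 9.19 and 5.19 CPM against 11 and 8.56 CPM. Ncr1, which marks natural killer cells, had 0 CPM in both Maf-low libraries and at most 0.123 CPM in the Maf-high ones, and Klre1 had 0 counts in all 4. The part of such cells in the Klrg1 level was not tested. Of the other genes in the list of KLRG1 ligands and related receptors, 7 were tested. By edgeR's test 2 of them passed as higher in the Maf-low libraries and 0 as lower (0.399% and 1.41% of all tested genes). Klrb1c, which encodes the NK1.1 antigen, had 68.5 and 44.9 CPM in the libraries labelled flox 2 and wt 2, against 21.3 and 22.6 CPM in those labelled flox 1 and wt 1 (log2 fold change 1.37, SE 0.21, edgeR adjusted p = 0.0368). Cd160, a receptor of the immunoglobulin family, had 78.9 and 72.3 CPM against 47 and 37.4 CPM in the same order (0.84, SE 0.14, edgeR adjusted p = 0.0427). Inpp5d, the lipid phosphatase SHIP1 that KLRG1 can recruit, had 362 and 333 CPM against 398 and 421 CPM (adjusted p = 0.295).

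Areg, the amphiregulin gene, was highest in a Maf-high library. It had 310 CPM in the library labelled flox 2 and 259 CPM in the library labelled wt 2, against 440 CPM in the library labelled flox 1 and 319 CPM in the library labelled wt 1. Within a label the Maf-low library was 0.703 times the Maf-high one in flox (0.682 to 0.725) and 0.812 times in wt (0.783 to 0.842), so that both pairs of libraries differed the same way by more than counting error. The groups barely separated, as the library labelled wt 1 was 1.03 times the library labelled flox 2 (0.996 to 1.07). The log2 fold change was -0.42 (SE 0.17, 95% interval -0.85 to 0.02, edgeR adjusted p = 0.387), and it was -0.17 without the library labelled flox 1. Mpp7, which encodes a scaffold protein, was among the 3 genes nearest to Areg in pattern, with 15.6 and 12.4 CPM in the libraries labelled flox 2 and wt 2, against 21.7 and 17.1 CPM in those labelled flox 1 and wt 1 (distance 0.12, where Areg spanned 0.765).

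Immediate early transcripts, which T cell stimulation and cell handling can raise, were also lower in the Maf-low libraries. Their summed level over 16 genes was 18610 CPM in the library labelled flox 2 and 14740 CPM in the library labelled wt 2, against 23900 CPM in the library labelled flox 1 and 24330 CPM in the library labelled wt 1. The median log2 fold change of the 16 was -0.54. Of the 16 genes 3 passed edgeR's test as lower in the Maf-low libraries and 0 as higher (1.41% and 0.399% of all tested genes). Nr4a1, one of the 3 and a nuclear receptor induced by T cell receptor signals, had 1828 and 1784 CPM in the libraries labelled flox 2 and wt 2, against 3782 and 3934 CPM in those labelled flox 1 and wt 1 (log2 fold change -1.09, SE 0.07, edgeR adjusted p = 0.00158). The part of these transcripts in the Areg level was not tested. Among the relatives, receptor and shedding genes of amphiregulin, 0 of 9 tested passed in either direction. Their median log2 fold change was 0.27, against 0.01 for all tested genes. That median is the value of Btc (SE 0.90), a related growth factor gene with at most 0.742 CPM in any library. It therefore rests on a barely detected gene, and no shift of the list is read from it. Adam17, the protease that sheds amphiregulin, had 142 and 130 CPM in the libraries labelled flox 2 and wt 2, against 143 and 140 CPM in those labelled flox 1 and wt 1. Adam17 was named after its values were seen. Rhbdf2, which brings ADAM17 to the cell surface, had 26.8 and 32.2 CPM against 27.4 and 21 CPM, Erbb2 had 4.79 and 3.31 CPM against 3.4 and 1.65 CPM, and the related growth factor gene Egf had 0.677 and 2.27 CPM against 0.573 and 0.924 CPM, all in the same order of libraries.

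Il1rl1, which encodes ST2, was nearly level across the 4 libraries. It had 93.3 CPM in the library labelled flox 2 and 99.9 CPM in the library labelled wt 2, against 104 CPM in the library labelled flox 1 and 101 CPM in the library labelled wt 1. The highest library was 1.12 times the lowest. The log2 fold change of Maf-low over Maf-high was -0.08 (SE 0.09, edgeR adjusted p = 0.764), with a 95% interval of -0.30 to 0.13. The rest of the interleukin 33 receptor pathway showed no call either, as 0 of 11 other tested genes passed in either direction and their median log2 fold change was -0.06. Myd88, the adaptor of this receptor, had 85.5 and 80.1 CPM in the libraries labelled flox 2 and wt 2, against 87 and 89.3 CPM in those labelled flox 1 and wt 1. Sigirr, an inhibitor of the pathway, had 153 and 164 CPM against 171 and 161 CPM, and Il33, the ligand made mostly by stromal and epithelial cells, had 0.822 and 0.939 CPM against 0.901 and 0.243 CPM.

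**Figure D3:**
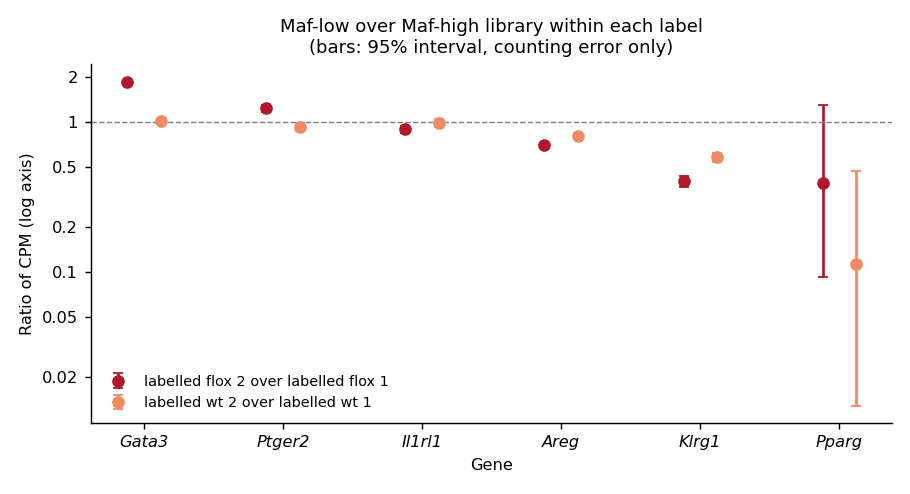
Ratio of CPM of the Maf-low over the Maf-high library (y axis, log scale) within flox (dark red) and within wt (orange) for the 6 tested members, with exact binomial 95% intervals of the counts. Klrg1 and Areg are below 1 in both labels, Gata3 is at 1.86 in flox and 1.01 in wt, and Ptger2 is above 1 in flox (1.24) and below 1 in wt (0.93).

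Ptger2 did not separate by Maf level. It had 154 CPM in the library labelled flox 2 and 111 CPM in the library labelled wt 2, against 124 CPM in the library labelled flox 1 and 119 CPM in the library labelled wt 1 (log2 fold change 0.12, SE 0.16, 95% interval -0.26 to 0.50, edgeR adjusted p = 0.818). The library labelled flox 2 was the high one, and the sign turned without it (-0.13). Of the other prostanoid genes 0 of 11 tested passed in either direction. Ptger4, the other prostaglandin E2 receptor that raises cyclic AMP, had the smallest unadjusted edgeR p among them (0.00973). It had 244 and 210 CPM in the libraries labelled flox 2 and wt 2, against 292 and 288 CPM in those labelled flox 1 and wt 1 (log2 fold change -0.35, SE 0.10, edgeR adjusted p = 0.176). Ptgir, the prostacyclin receptor, had 11.8 and 12.7 CPM against 9.71 and 9.33 CPM, and Ptgdr, a prostaglandin D2 receptor, had 1.69 and 1.33 CPM against 0.656 and 1.07 CPM, in the same order.

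Pparg was near the limit of detection. It had 4 counts in the library labelled flox 2 and 2 counts in the library labelled wt 2, against 12 counts in the library labelled flox 1 and 18 counts in the library labelled wt 1, or 0.194, 0.0989, 0.492 and 0.875 CPM. Both Maf-low libraries were below both Maf-high ones, and the gene passed the filter on low counts only through the Maf-high libraries, so its presence among the tested genes is itself tied to a difference. Within flox the ratio of the Maf-low to the Maf-high library was 0.394 with an interval that reaches past 1 (0.0925 to 1.3), and within wt it was 0.113 (0.0127 to 0.472). The log2 fold change was -2.17 (SE 0.90, 95% interval -4.35 to 0.01, edgeR adjusted p = 0.371). Of its partners and target genes, 0 of 17 tested passed in either direction. Rxra, which encodes the retinoid receptor that pairs with PPAR gamma, had 5.46 and 6.72 CPM in the libraries labelled flox 2 and wt 2, against 12.2 and 12.9 CPM in those labelled flox 1 and wt 1 (log2 fold change -1.04, SE 0.23, edgeR adjusted p = 0.109). Plin2, a lipid droplet protein, had 30.2 and 18.4 CPM against 38.7 and 34.7 CPM, and Scd1, a fatty acid desaturase, had 1.02 and 1.53 CPM against 4.88 and 1.99 CPM.

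Transcripts of the type 2 cytokine genes Il5 and Il13 were at or under the detection floor in every library. Il5 had 0 counts in all 4 libraries, which allows up to 0.145 CPM in the library labelled flox 2 and 0.148 CPM in the library labelled wt 2, against 0.123 CPM in the library labelled flox 1 and 0.146 CPM in the library labelled wt 1 (3 counts each). Il13 had 2 counts in the library labelled flox 2 and 2 counts in the library labelled wt 2, against 1 count in the library labelled flox 1 and 0 counts in the library labelled wt 1, all at or under that floor, so neither gene was tested and no ratio is given. Il4, their neighbour on the same chromosome, was detected at 16.9 and 10.1 CPM in the libraries labelled flox 2 and wt 2, against 13.1 and 12.3 CPM in those labelled flox 1 and wt 1. Il4 was named after its values were seen. Of the other genes of the type 2 cytokine locus and its receptors 0 of 9 tested passed in either direction. Il13ra1, a receptor subunit for interleukin 13, had 5.42 and 9.74 CPM in the libraries labelled flox 2 and wt 2, against 15.8 and 12.3 CPM in those labelled flox 1 and wt 1 (log2 fold change -0.89, SE 0.32, edgeR adjusted p = 0.301). Il2rg, the receptor chain shared by several interleukins, had 1520 and 1479 CPM against 1279 and 1339 CPM (0.20, SE 0.07, edgeR adjusted p = 0.287), and Irf1, a transcription factor gene near the locus, had 297 and 267 CPM against 329 and 277 CPM.

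By label, flox against wt, 0 of the 6 tested members passed edgeR's quasi-likelihood test, where 1 of the 13022 tested genes did (0.00768%), and 0 of the 6 had an unadjusted p under 0.05, where 1.98% of all tested genes did. The adjusted p was 1 for each of the 6, and DESeq2 and limma-voom also called 0 members. Ptger2 was the only tested member for which both libraries labelled flox lay above both labelled wt, at a mean of 139 ± 20.8 CPM in flox and 115 ± 5.91 CPM in wt (SD, n = 2 each), where 27% of all tested genes had separate labels (13.2% higher in flox). Its log2 fold change of flox over wt was 0.27 (SE 0.14), and the library labelled flox 1 was 1.04 times the library labelled wt 1 (0.985 to 1.1), within counting error. Gata3 averaged 559 ± 238 CPM in flox and 460 ± 3.93 CPM in wt (SD, n = 2 each), with a log2 fold change of 0.28 (SE 0.31) that turned to -0.23 without the library labelled flox 2. Areg averaged 375 ± 92.3 CPM in flox and 289 ± 42.5 CPM in wt (log2 fold change 0.38, SE 0.21), and Klrg1 averaged 60.9 ± 36.5 CPM in flox and 90.1 ± 33.6 CPM in wt (-0.57, SE 0.53), each with a spread within a label of the size of the difference between labels.

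The genes around the members were read from 9 lists with 137 genes other than the 8, of which 120 were tested. By edgeR's test 2 of the 120 passed as higher in the Maf-low libraries and 5 as lower, against 0.399% and 1.41% of all tested genes. By label 0 of the 120 passed. The lists were chosen with earlier results of these data known, so the count among the 120 is a description only. Besides Klrb1c and Cd160, which passed as higher, those that passed as lower include Il10, Itgb8, Tigit and Zeb2. Among the partners and upstream factors of GATA3, Runx3, a partner of T-bet, had 132 and 100 CPM in the libraries labelled flox 2 and wt 2, against 72 and 82.2 CPM in those labelled flox 1 and wt 1 (log2 fold change 0.59, SE 0.15, edgeR adjusted p = 0.149). Ets1, a transcription factor of lymphocytes, had 2400 and 2439 CPM against 2763 and 2850 CPM in the same order (edgeR adjusted p = 0.207).

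In the list of tissue regulatory T cell genes 3 of 26 tested passed as lower and 0 as higher (1.41% and 0.399% of all tested genes). They were Il10, at 26.8 and 24.5 CPM in the libraries labelled flox 2 and wt 2 against 385 and 429 CPM in those labelled flox 1 and wt 1 (log2 fold change -3.99, SE 0.11, edgeR adjusted p = 6.94e-05), Itgb8, an integrin chain that activates TGF-beta (-0.95, SE 0.13, adjusted p = 0.0256), and Tigit, an inhibitory receptor (-0.65, SE 0.11, adjusted p = 0.0436). Itgb8 had 42 and 34.9 CPM against 70.5 and 77.8 CPM, and Tigit had 97.2 and 81.5 CPM against 139 and 142 CPM, in the same order. Among 12 tested genes linked to short-lived effector cells, 1 passed as lower. This was Zeb2, a repressor that acts with T-bet in KLRG1-positive CD8 T cells, at 0.0484 and 0.346 CPM in the libraries labelled flox 2 and wt 2 against 5 and 4.96 CPM in those labelled flox 1 and wt 1, or 1 and 7 counts against 122 and 102 counts (adjusted p = 0.0407). Like Pparg, Zeb2 passed the filter on low counts only through the Maf-high libraries. Without that filter the 7 genes called here were still called. That fit called more genes in all, 186 higher and 403 lower against 52 and 184, so staying called in it adds little. The level of Prdm1, the gene of the repressor Blimp-1, was 83.2 and 88 CPM against 118 and 134 CPM (log2 fold change -0.56, SE 0.10, adjusted p = 0.0551), and Bcl6 had 161 and 111 CPM against 253 and 260 CPM (adjusted p = 0.089). All adjusted p-values here are from the same edgeR fit. The count of 7 calls was sensitive to single libraries, with 2 calls without the library labelled wt 1, 5 without the library labelled flox 1, 14 without the library labelled wt 2 and 17 without the library labelled flox 2.

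**Figure D4:**
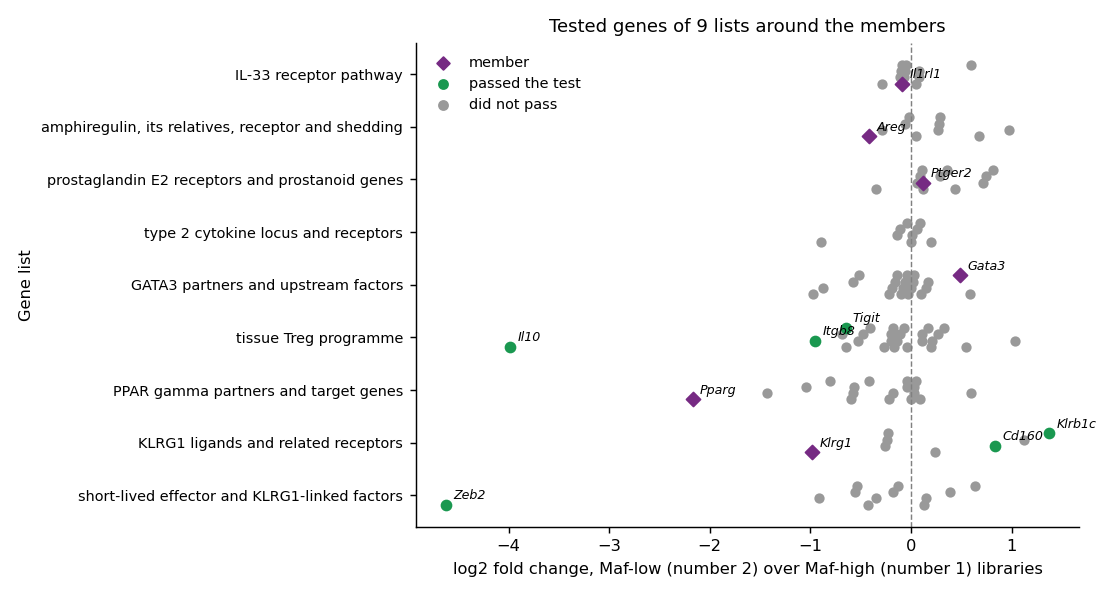
Log2 fold change of Maf-low over Maf-high libraries (x axis) for the tested genes of the 9 lists (y axis), with members as purple diamonds and other genes that passed edgeR's test in green. The 6 tested members lie between -2.17 (Pparg) and 0.49 (Gata3) without passing, and the genes shown that passed are Klrb1c and Cd160 to the right and Il10, Itgb8, Tigit and Zeb2 to the left of 0.

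Type 2 innate lymphoid cells and mast cells share several of the 8 genes, so their markers were read too. Of 14 mast cell and basophil markers, 5 had 0 counts in all libraries, among them Mcpt1, Tpsb2 and Fcer1a, and 11 had a mean under 1 CPM. The summed level of the 14 was 32.3 CPM in the library labelled flox 2 and 125 CPM in the library labelled wt 2, against 37.6 CPM in the library labelled flox 1 and 26.5 CPM in the library labelled wt 1, with Kit making up 109 CPM in the library labelled wt 2. The 15 markers of type 2 innate lymphoid cells summed to 976 and 1190 CPM in the libraries labelled flox 2 and wt 2, against 1114 and 1064 CPM in those labelled flox 1 and wt 1, and most of that came from Il2ra, Rora and Ccr9, which regulatory T cells express as well. None of the 12 tested markers (0) passed edgeR's test. Il17rb, an interleukin 25 receptor chain, had 63.4 and 72.4 CPM in the libraries labelled flox 2 and wt 2, against 48.7 and 46.8 CPM in those labelled flox 1 and wt 1 (log2 fold change 0.51, SE 0.11, unadjusted p = 0.00351, adjusted p = 0.105). Lmo4 had 2.76 and 4.89 CPM against 13.4 and 9.97 CPM in the same order (-1.61, SE 0.35, unadjusted p = 0.00326, adjusted p = 0.1). Ccr9 had the smallest unadjusted edgeR p of these markers (0.00152). Its level was 134 and 166.6 CPM against 269.7 and 228.3 CPM (-0.729, SE 0.136, edgeR adjusted p = 0.0683). Hs3st1 had 0 to 2.95 CPM over the 4 libraries, Arg1 at most 0.287 CPM and Zbtb16 likewise at most 0.287 CPM. Epithelial markers (13 genes) summed to 354 and 481 CPM against 476 and 216 CPM in the same order, and myeloid markers to 58.4 and 62.8 CPM against 99.6 and 13.3 CPM. The part of these cells in the levels of the 8 genes was not tested.

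Some genes overlap others in the GENCODE annotation of mm10. Gata3 (chromosome 2, 9857078 to 9890034, minus strand) shares 77 exon bases with 9230102O04Rik on the same strand, which had 11 to 14 counts per library, and 155 exon bases with the antisense gene Gm13256. Ptger2 (chromosome 14, 44988195 to 45003820, plus strand) shares 246 and 144 exon bases with the opposite-strand genes Gm17173 and Gm49364, and Il5 (chromosome 11, 53720794 to 53725106, plus strand) shares 417 with Gm12214. The use of strand in counting is not given in the sources used here, so reads of these antisense pairs cannot be told apart. Areg (chromosome 5, 91139599 to 91148432, plus strand), Klrg1 (chromosome 6, 122270596 to 122282882, minus strand), Il1rl1 (chromosome 1, 40429570 to 40465415, plus strand) and Il13 (chromosome 11, 53631324 to 53634702, minus strand) overlap no other annotated gene. Pparg (chromosome 6, 115360951 to 115490399, plus strand) overlaps the antisense gene Gm44079 with 0 shared exon bases, and Gata3 overlaps the opposite-strand gene 4930412O13Rik in the same way.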

How the data were processed

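Sorted cells went into Trizol, their RNA was cleaned with the Qiagen RNeasy Micro Kit and it was made into libraries with a low-input mRNA kit from Clontech, per the labels' protocols. The tools named are TopHat2 2.1.1, HTSeq 0.6.1 and edgeR 3.14, with build mm10, per the submitters' processing notes; their settings, annotation and strand setting are not given. The authors deposited raw counts per gene symbol and a filtered table of normalized values, a signal that is never negative, which was only described. The 5 summary rows of the counter (66.6% to 67.2% of each column) were left out. In 27 rows the symbol had been turned into a date; they were tested but are not named.

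The members and lists were chosen with earlier results of these data known. The test was edgeR 4.0.16 (R 4.3.3) on the counts: filterByExpr, TMM scaling, glmQLFit (robust), glmQLFTest, Benjamini-Hochberg adjustment over 13022 genes, threshold 0.05. The standard error is the log2 fold change over the root of F, and intervals are at 95%. Fits were made by title label and by title number; numbers do not say that libraries are paired. Alternatives were DESeq2 1.42.0, limma-voom (limma 3.58.1), RLE and upper quartile scaling, other filters, a block and leaving out each library. Genes named besides the 8 were, per list, the 3 with the smallest p and any that passed; for each abundant member the 3 genes nearest in pattern were found; heat shock genes were the 3 most abundant. Where a gene fell outside this rule, the text says so or gives it as a marker. GENCODE vM21 gave coordinates (94.5% of rows matched by symbol) and RefSeq the promoters. A few genes under this rule were left out of the text and figures.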

Additional observations from a re-analysis of the deposited data

Results flagged for a closer look

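The ratio of Ptger2 between Maf-low and Maf-high libraries lay on opposite sides of 1 in the 2 labels. The Maf-low library was 1.24 times the Maf-high one in flox (counting interval 1.18 to 1.3) and 0.93 times in wt (0.878 to 0.985). With upper quartile scaling these ratios were 1.227 in flox and 0.9585 in wt. The intervals cover counting error only and not the choice of scaling. With 1 library on each side within a label the difference was not tested.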

How the results depend on the processing

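Between Maf-low and Maf-high libraries 52 genes were called higher and 184 lower. DESeq2 called 189 and 451, and no filter on low counts gave 186 and 403. Leaving out 1 library gave 5 to 173 higher and 41 to 401 lower, 0 to 2 members and 2 to 17 other pathway genes. DESeq2 called 1 member and 14 pathway genes, no filter called 12 pathway genes, and a replicate block by label called 1 member, Klrg1. By label 1 gene was called higher and 0 lower. DESeq2 gave 9 and 3, limma-voom 0 higher, no filter 2 higher, and leaving out any 1 library 0 higher. The title numbers were not counted as pairing, as there are only 2 pairs. The correlation of deviations (0.363) cannot decide this, because the same numbers also split the libraries by Maf level. The replicate block by number gave 1 higher, 0 lower and 0 members by label. Log2 fold changes by label reversed for Gata3 (-0.234 to 0.663 over the left-out libraries), Il1rl1 (-0.101 to 0.057) and Pparg (-1.321 to 1.745, and 0.027 with limma-voom). Between Maf levels, Ptger2 reversed (-0.131 to 0.339). The within-wt ratio of Il1rl1 was 1.024 with upper quartile scaling. The cause of these changes was not tested. Of the members' log2 fold changes under the alternatives, 60 by label and 60 by Maf level kept their direction and side of the threshold, and 4 by Maf level passed it: Klrg1 with DESeq2, the block and without the library labelled wt 2, and Gata3 without that library. Without the library labelled wt 2 the Maf-low group is 1 library, so the passes in that fit carry no spread of that group. Depth limits Pparg, Il13 and Il5.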

Other observations

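Kit, a growth factor receptor of mast cells and innate lymphoid cells, was high in a single library, with 13.1 CPM in the library labelled flox 2 and 109 CPM in the library labelled wt 2, against 26.7 CPM in the library labelled flox 1 and 14.9 CPM in the library labelled wt 1. In the same libraries the mast cell protease gene Cpa3 had 0.145 and 0.346 CPM, against 0 and 0.0486 CPM. These are 3 and 7 counts against 0 and 1, and 5 of the 14 mast cell and basophil markers had 0 counts in all libraries. Cdh1, which encodes the KLRG1 ligand E-cadherin, had 44.2 and 33.1 CPM in the libraries labelled flox 2 and wt 2, against 26.2 and 9.14 CPM in those labelled flox 1 and wt 1, and did not pass edgeR's test (log2 fold change 1.12, SE 0.54, adjusted p = 0.49). The 13 epithelial markers, Cdh1 among them, summed to 354 and 481 CPM against 476 and 216 CPM in the same order. The part of epithelial cells in the Cdh1 level was not tested. Itgae, an integrin chain that binds E-cadherin, had 1561 and 1359 CPM against 860 and 568 CPM in the same order (1.03, SE 0.22, adjusted p = 0.149). These 4 genes were singled out after their values were seen.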
